A study of Mus musculus with 15 samples.

Results

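The cytosolic ribosomal protein genes were taken from the table by symbol, as Rpl or Rps followed by a digit with Rplp0, Rplp1, Rplp2 and Rpsa added and the Rps6 kinases and Rps19bp1 removed. The rule gave 88 of the 16809 genes in the table. They were 46 proteins of the large subunit, 31 of the small subunit, 9 paralogs and 2 genes with pseudogene names. The low-count filter kept 83 of them, which were all 77 subunit proteins and 6 paralogs. The other 5, the paralogs Rps27rt, Rpl3l and Rpl39l and the pseudogene names Rpl31-ps12 and Rpl34-ps1, had too few reads to be tested.

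Expression was measured by RNA sequencing of mouse liver, with 15 libraries in 5 groups of 3, all from wild-type animals fed for 6 weeks. Control mice ate a standard feed. Model mice ate a high-fat diet made of that feed (78.8%) with lard (10%), egg yolk powder (10%), cholesterol (1%) and sodium cholate (0.2%). Mice of the 3 flavonoid groups ate a high-fat diet and took quercetin (200 mg/kg/day), myricetin (75 mg/kg/day) or kaempferol (100 mg/kg/day) by oral gavage. The labels give neither strain, sex, age, fasting state nor hour of collection, and do not say whether control and model mice were gavaged or whether the flavonoid groups' diet had the same composition as the model's. Nor do they say that each library is a different mouse. The p-values below therefore measure the spread between libraries, which may be technical in part.

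Each cytosolic ribosome holds a small subunit, which reads the mRNA, and a large subunit, which joins the amino acids. The ribosomal protein genes are transcribed by RNA polymerase II, and because each protein is needed in equal amount their mRNAs are commonly kept at coordinated levels. In mammals most of these mRNAs begin with a C followed by a run of pyrimidines, the 5′ terminal oligopyrimidine (TOP) motif, through which the mTORC1 kinase and the RNA-binding protein Larp1 control their translation and stability. The liver makes the plasma proteins, so its cells are rich in ribosomes.

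The TOP-type start is shown for 3 genes that changed between groups, Rps27, Rps18 and Rpl14. Beside them stand 2 genes without such a run at the annotated start, Rps12, which rose with quercetin, and Rpl22l1, which did not pass any comparison. Both Rps12 and Rpl22l1 hold a pyrimidine run shortly after the annotated start, so neither is shown to lack a TOP start. Each window runs from 30 bases before to 20 bases from the RefSeq start in the build GRCm38.p6, so that it ends inside the first exon, and capitals mark the uninterrupted pyrimidines that begin with C at the start. Windows lie at chr3:90213629-90213678 (minus strand) for Rps27, chr17:33955646-33955695 (minus) for Rps18, chr9:120571487-120571536 (plus) for Rpl14, chr10:23787190-23787239 (minus) for Rps12 and chr3:28805478-28805527 (plus) for Rpl22l1.
Rps27: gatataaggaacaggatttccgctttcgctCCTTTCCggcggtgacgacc
Rps18: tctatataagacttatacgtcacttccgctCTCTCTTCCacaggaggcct
Rpl14: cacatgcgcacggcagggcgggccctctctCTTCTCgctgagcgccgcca
Rps12: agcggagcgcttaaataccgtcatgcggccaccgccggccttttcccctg
Rpl22l1: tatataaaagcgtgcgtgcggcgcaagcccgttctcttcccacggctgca

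RefSeq promoters were found for 67 of the 88 genes, with 79 windows of 300 bases, and 21 genes had no entry. A run of at least 5 pyrimidines starting with C stood at the annotated start in 19.0% of the windows, against 2.31% of the 12911 windows of all tested genes. An annotated start a few bases away from the true one hides such a run, so the share does not count every TOP start. Motifs were searched on both strands, and a match is a description only. The letters CCGGAAG, an ETS-type motif, stood in 34.2% of the windows against 16.6% for tested genes. AAGATGG, a YY1-type motif, stood in 15.2% against 6.83%. GGGCGG, the GC box, stood in 57.0% against 60.0%, and the E-box CACGTG in 10.1% against 9.6%.

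The libraries held 15.9 to 17.6 M expected counts each. Levels between libraries are given as CPM, the count scaled to a common library size, on library sizes scaled with TMM, the trimmed mean of M-values, and changes as log2 fold changes ± standard error from edgeR's quasi-likelihood test. A gene passed, and is said to rise or fall, at a Benjamini-Hochberg adjusted p under 0.05 over the 12658 genes tested. Albumin, the main secreted hepatocyte protein, took 4.28% to 7.86% of the counts, and none of the 10 hepatocyte markers examined was at 0 in any library. In whole liver, fewer cells of a type and less RNA per cell cannot be told apart.

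Ribosomal protein mRNA was lower in the model than in the control and at about the control level with quercetin. Its summed level was 17414, 18269 and 17883 CPM in the control libraries 1, 2 and 3, and 14163, 14073 and 14747 CPM in the model libraries 1, 2 and 5. The quercetin libraries 2, 5 and 8 held 16900, 17915 and 20597 CPM. All 3 model libraries were thus below every control and every quercetin library. Myricetin libraries 5, 7 and 8 held 13591, 14543 and 17207 CPM, and kaempferol libraries 3, 5 and 8 held 14115, 16647 and 13816 CPM. In both of these groups 1 library, myricetin 8 or kaempferol 5, stood above the other 2.

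**Figure D1:**
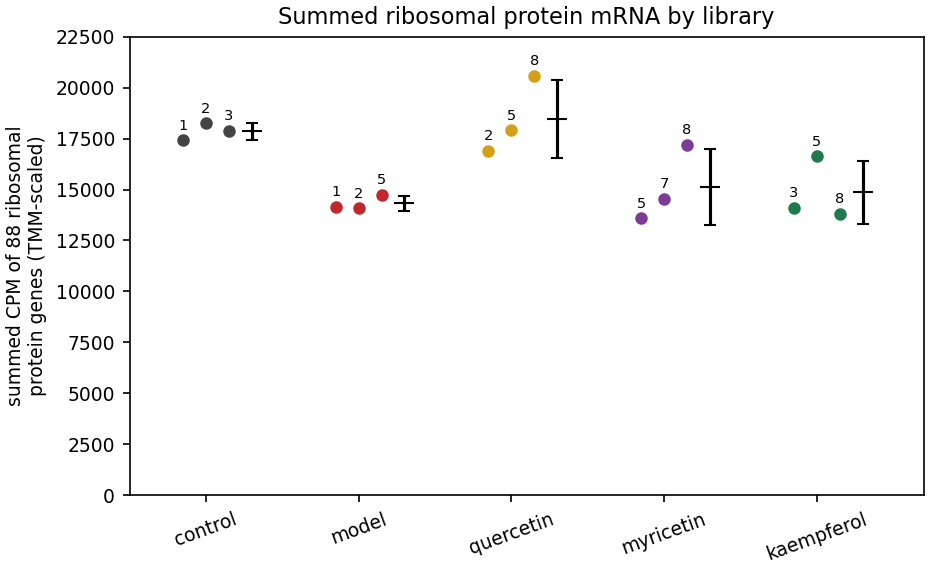
Summed CPM of the 88 ribosomal protein genes (vertical axis, TMM-scaled CPM) by group, with 1 point per library labelled by its number and the mean ± SD (n = 3) in black beside the points. The model libraries lie between 14073 and 14747 CPM, below all control (17414 to 18269) and quercetin (16900 to 20597) libraries, while 1 myricetin and 1 kaempferol library lie above the other 2 of their group.

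By group, the summed level averaged 17855 ± 428 CPM for control, 14328 ± 366 CPM for model, 18471 ± 1910 CPM for quercetin, 15114 ± 1870 CPM for myricetin and 14859 ± 1560 CPM for kaempferol libraries (SD, n = 3). In TMM-scaled CPM the spread was therefore narrow in the control and the model and wide in the flavonoid groups. As a share of the counts before TMM scaling, the genes took 1.65% to 1.8% in the control, 1.34% to 1.4% in the model and 1.86% to 1.99% with quercetin. The share was 1.41% to 1.7% with myricetin and 1.44% to 1.54% with kaempferol. Its SD in percentage points was 0.0755 for control, 0.0306 for model, 0.0751 for quercetin, 0.146 for myricetin and 0.0529 for kaempferol libraries. Before TMM scaling only the myricetin spread was thus wider than that of the control.

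Library quercetin 8 stood apart from the rest in TMM-scaled CPM. Of the 83 tested genes, 74 had their highest CPM of all 15 libraries in it, and 82 were above their own median over the libraries. Before TMM scaling its share of the counts was 1.99%, the same as in quercetin 5. The TMM factor was 0.967 for quercetin 8 against 1.1 and 1.11 for quercetin 2 and 5. In the other quercetin libraries, 52 (library 2) and 78 (library 5) genes were above their median. The control libraries had 71, 78 and 78 genes above it and the model libraries 1, 5 and 6. Myricetin 8 and kaempferol 5 had 67 and 51 genes above their median, while the other libraries of these 2 groups had 0, 8, 3 and 1.

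**Figure D2:**
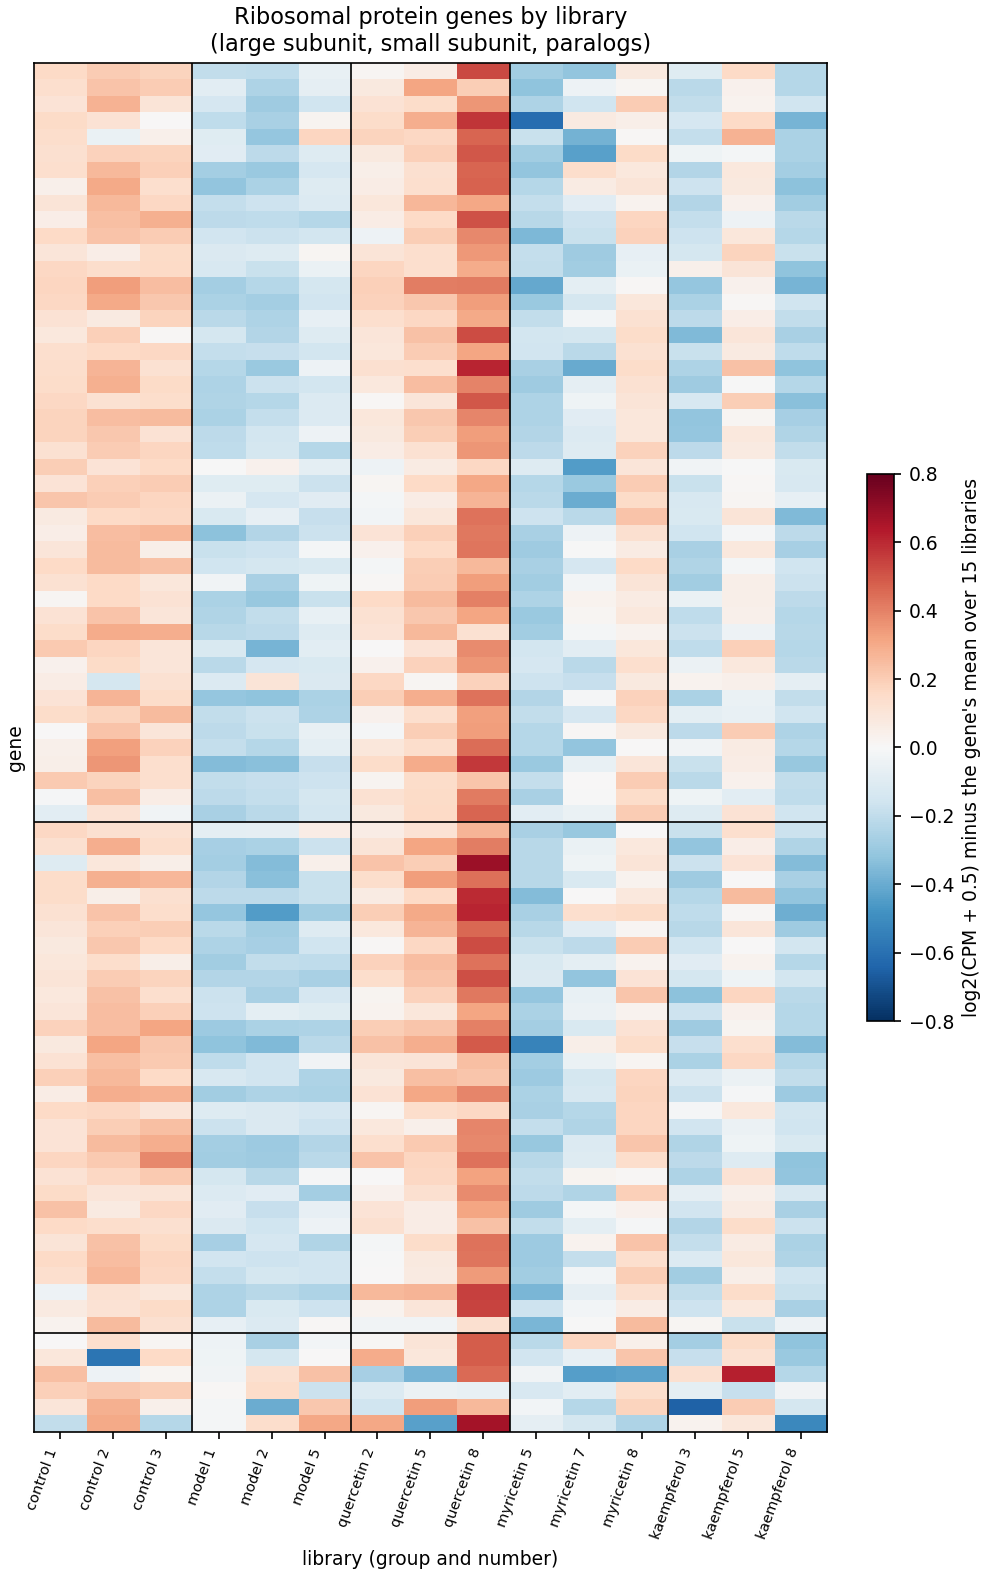
Each row, without a gene label, is 1 of the 83 tested genes, ordered within large subunit, small subunit and paralogs (black lines) by mean FPKM, and each column is 1 library. Colour gives log2(CPM + 0.5) minus the gene's mean over the 15 libraries, from blue (lower) to red (higher); subunit proteins are mostly red in the control and quercetin columns and mostly blue in the model columns, and the 6 paralogs at the bottom follow this less evenly.

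Between genes, levels are compared as the deposited FPKM, which divides by length. The highest means over the 15 libraries were those of Rps2 (1108 ± 123 FPKM), a protein near the mRNA entry of the small subunit, and Rpl41 (1018 ± 159 FPKM), a very short basic peptide. Rpl28 (961 ± 146), Rpl10 (905 ± 133), which is placed late in large subunit maturation, and Rpl38 (866 ± 166) followed (mean ± SD, n = 15). Each of these 5 means lay within 1 SD of the next. That SD runs over the libraries of all 5 groups, and the order of neighbours within libraries was not tested. The lowest 5 were the untested genes, each under 1 FPKM on average. The paralogs Rps27rt (0.263 FPKM), Rpl3l (0.0607), the muscle form of Rpl3, and Rpl39l (0.0193), a testis form of Rpl39, were among them, with the pseudogene names Rpl34-ps1 (0.118) and Rpl31-ps12 (0.0447).

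Some FPKM depend on how reads were assigned. Rps15a (14.8 FPKM), named after its values were seen, and Rps20 (47.0 FPKM) had effective lengths of 4880 and 3190 bases, as the ratio of count to FPKM gives them, against a median of 447 bases for the 83 tested genes. Rps6, the target of the S6 kinases, was at only 10.7 ± 1.22 FPKM. Its counts were not whole in any library, which marks reads divided between genes, and these values were seen before its partner was looked up. The gene LOC105244208, annotated as a ribosomal protein S6 pseudogene, held a mean of 333 CPM against 12.2 CPM for Rps6, so that Rps6 kept 2.93% to 4.3% of the sum. The 2 genes are therefore best read together. Their sum was 368, 416 and 386 CPM in control, 294, 299.9 and 303 CPM in model and 392, 405 and 429.6 CPM in quercetin libraries. Model libraries were below all of both other groups. The same sum was 271, 321 and 384 CPM with myricetin and 287, 313 and 303 CPM with kaempferol.

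The model was compared with the control to ask what the cholesterol-rich diet altered in the liver. Of the 83 tested genes, 12 fell in the model, 6 of the large and 6 of the small subunit, and none rose. This is 14.5% of the tested ribosomal protein genes, while 2.27% of all tested genes fell (2.2% rose). The median log2 fold change was -0.33 over the 83 genes and -0.01 over all tested genes. It was -0.33 for the large subunit, -0.34 for the small subunit and -0.07 for the 6 paralogs. Below 0 were 80 of the 83 values, against 51.2% of all genes. In 75 genes every model library was below every control library, against 14.9% of all genes.

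Among small subunit genes, Rps27a encodes a ribosomal protein fused to ubiquitin, which is cut off after translation. It was at 194, 199 and 225 CPM in the control and at 142, 141 and 148 CPM in the model. All model libraries were lower, and the fall was by 0.52 ± 0.11 on the log2 scale (edgeR adjusted p = 0.0182). Rps16, whose tail reaches the decoding site, fell from 217, 227 and 237 CPM to 156, 160.2 and 160.5 CPM. Its log2 fold change was -0.51 ± 0.11 (edgeR adjusted p = 0.0195). Rps18, a protein of the small subunit head, fell from 237, 260.4 and 258 CPM to 181.5, 169.5 and 189 CPM, by 0.48 ± 0.11 (edgeR adjusted p = 0.0228). Rps19, the gene most often mutated in Diamond-Blackfan anemia, also fell (-0.48 ± 0.12, edgeR adjusted p = 0.0326), as did the zinc finger protein Rps27 (-0.51 ± 0.13, 0.0382).

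Among large subunit genes, Rpl14 was at 201, 223 and 223 CPM in the control and at 156, 157 and 169 CPM in the model. The groups did not overlap, and the fall was by 0.43 ± 0.10 on the log2 scale (edgeR adjusted p = 0.0253). Rpl13a, which also has a role off the ribosome in silencing inflammatory mRNAs, fell from 492, 541 and 509 CPM to 368, 362 and 393 CPM, by 0.46 ± 0.11 (edgeR adjusted p = 0.0275). Rpl5, which with Rpl11 binds Mdm2 when ribosome assembly is disturbed, fell by 0.40 ± 0.11 (edgeR adjusted p = 0.0444), and Rpl11 had a log2 fold change of -0.31 ± 0.11 that did not pass (0.115). Rpl36 (-0.47) and, named here after its values were seen, Rpl34 (-0.44) were also among the genes that fell.

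The stalk proteins Rplp0, Rplp1 and Rplp2, which recruit the elongation factors, did not pass, with log2 fold changes of -0.29 ± 0.12, -0.11 ± 0.15 and -0.27 ± 0.11. Nor did Rpsa (-0.25 ± 0.11), Rps3 (-0.35 ± 0.13), Rps14 (-0.38 ± 0.13), Rpl10 (-0.36 ± 0.12), Rpl39 (-0.34 ± 0.14) or Rpl41 (-0.33 ± 0.14). Rpl3, which lines the peptidyl transferase centre, was nearest to 0 among the subunit proteins, at -0.05 ± 0.11. Rpl37rt (0.24 ± 0.43), Rpl22l1 (0.04 ± 0.23) and Rpl36al (0.02 ± 0.17), all paralogs, were the 3 genes above 0.

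The number of genes that fell rested on the full set of libraries. It was 14 without control 1 and 0 without any 1 of control 2, control 3 and the 3 model libraries, while the median stayed between -0.35 and -0.30 in these 6 fits. Calls over all genes moved in the same fits. Of all tested genes 287 fell with every library in, 468 without control 1, 44 without control 2, 62 without control 3, 62 without model 1, 153 without model 2 and 30 without model 5. Cell type markers moved in the same comparison. Of 10 hepatocyte markers 1 fell (list median -0.24). Their summed level was 124926 to 140213 CPM in control against 93418 to 117625 CPM in model libraries, without overlap. Albumin alone averaged 78432 CPM in control and 53099 CPM in model libraries, beside 134434 and 103006 CPM for the whole list. Of 12 macrophage markers 4 rose in the model, with a summed level of 135.5 to 224 CPM in control and 289 to 403 CPM in model libraries. Of 8 endothelial markers 3 rose, with a sum of 82.6 to 131 CPM in control and 143 to 191 CPM in model libraries. No marker of these lists was at 0 in any library. Of 6 genes that respond to feeding, 3 rose and 2 fell, among them Igfbp1, G6pc and Irs2 (higher) and Angptl8 (lower). Their part in the lower ribosomal protein mRNA was not tested.

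**Figure D3:**
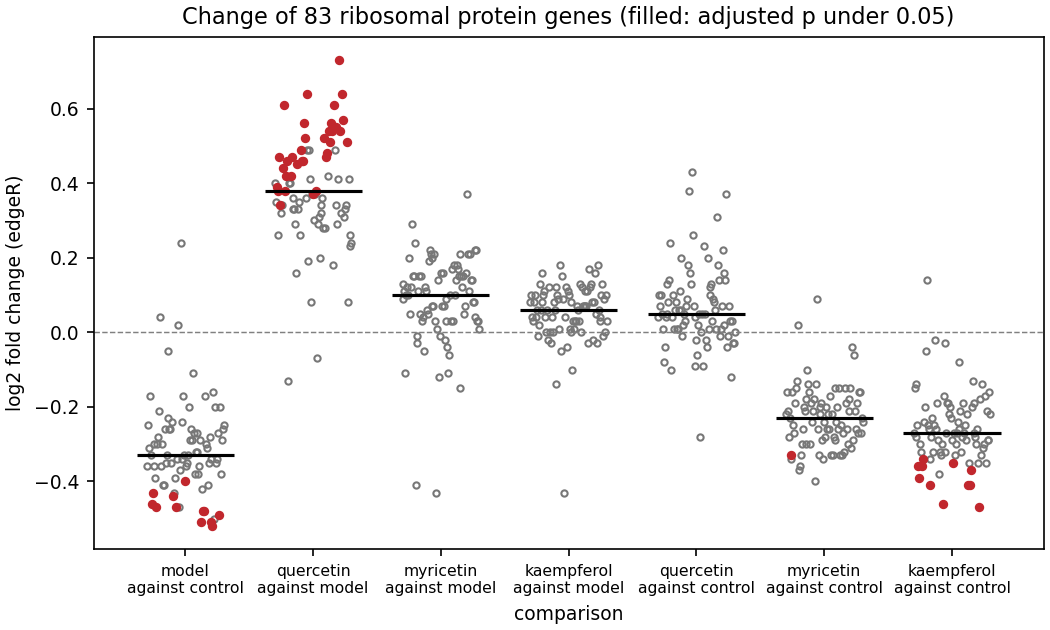
Log2 fold change (vertical axis) of each of the 83 tested genes in each of 7 comparisons (horizontal axis), with genes in alphabetical order within a comparison, filled red points for adjusted p under 0.05 and a black line at the median. Medians are -0.33 in the model against the control and 0.38 with quercetin against the model, and lie at 0.10 and 0.06 with myricetin and kaempferol against the model.

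With quercetin against the model, 34 of the 83 genes rose and none fell, which is 41.0% of them. Of all tested genes 4.06% rose and 3.76% fell. The 34 were 20 of 46 large subunit genes and 14 of 31 small subunit genes, and none of the 6 paralogs. The median log2 fold change was 0.38 over the 83 genes against 0.01 over all genes, and 81 values were above 0 (50.9% of all genes). In 74 genes every quercetin library was above every model library, against 15.4% of all genes. This comparison and the one before it share the 3 model libraries, so the values of a gene in both are given side by side only.

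In the small subunit, Rps27 was at 60.3, 54.8 and 61.7 CPM in the model and at 85.9, 92.7 and 115 CPM with quercetin. The ranges lay well apart, and the rise was 0.73 ± 0.13 on the log2 scale (edgeR adjusted p = 0.00355), the highest of the 83. Rps12 rose from 130.5, 138 and 137 CPM to 180.0, 188 and 214 CPM, by 0.52 ± 0.10 (edgeR adjusted p = 0.00363). Rps18 rose to 236, 269.9 and 291 CPM from the model values given above, by 0.56 ± 0.11 (edgeR adjusted p = 0.00567). Rps27a rose to 201, 194 and 233 CPM, by 0.54 ± 0.11 (edgeR adjusted p = 0.00779). For Rps18 and Rps27a the lowest quercetin library was about level with the lowest control library.

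In the large subunit, Rpl36a, a protein of the tRNA exit site, rose from 57.2, 55.1 and 60.1 CPM to 76.2, 81.3 and 90.5 CPM, by 0.52 ± 0.10 (edgeR adjusted p = 0.00646). Rpl14 rose less, to 196, 217 and 198 CPM from 156, 157 and 169 CPM (0.34 ± 0.10, edgeR adjusted p = 0.0454). The Mdm2-binding pair Rpl5 (0.37 ± 0.11, 0.0414) and Rpl11 (0.39 ± 0.11, 0.0466) rose as well, as did the RNA-binding protein Rpl22 (0.46 ± 0.12, 0.025).

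A few abundant members differed little. Rpl4, whose loop lines the exit tunnel, was at 441, 451 and 419 CPM in the model and at 428, 462 and 495 CPM with quercetin. These ranges overlapped, and the difference was 0.08 ± 0.12 (edgeR adjusted p = 0.737). Rpl3 (0.16 ± 0.11), Rps2 (0.18 ± 0.11) and the stalk protein Rplp0 (0.20 ± 0.12) did not pass either. Rplp1 (0.34 ± 0.15) and Rplp2 (0.32 ± 0.11) also missed the threshold. Only the paralogs Rpl22l1 (-0.13 ± 0.23) and Rpl7l1 (-0.07 ± 0.10) had values below 0.

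**Figure D4:**
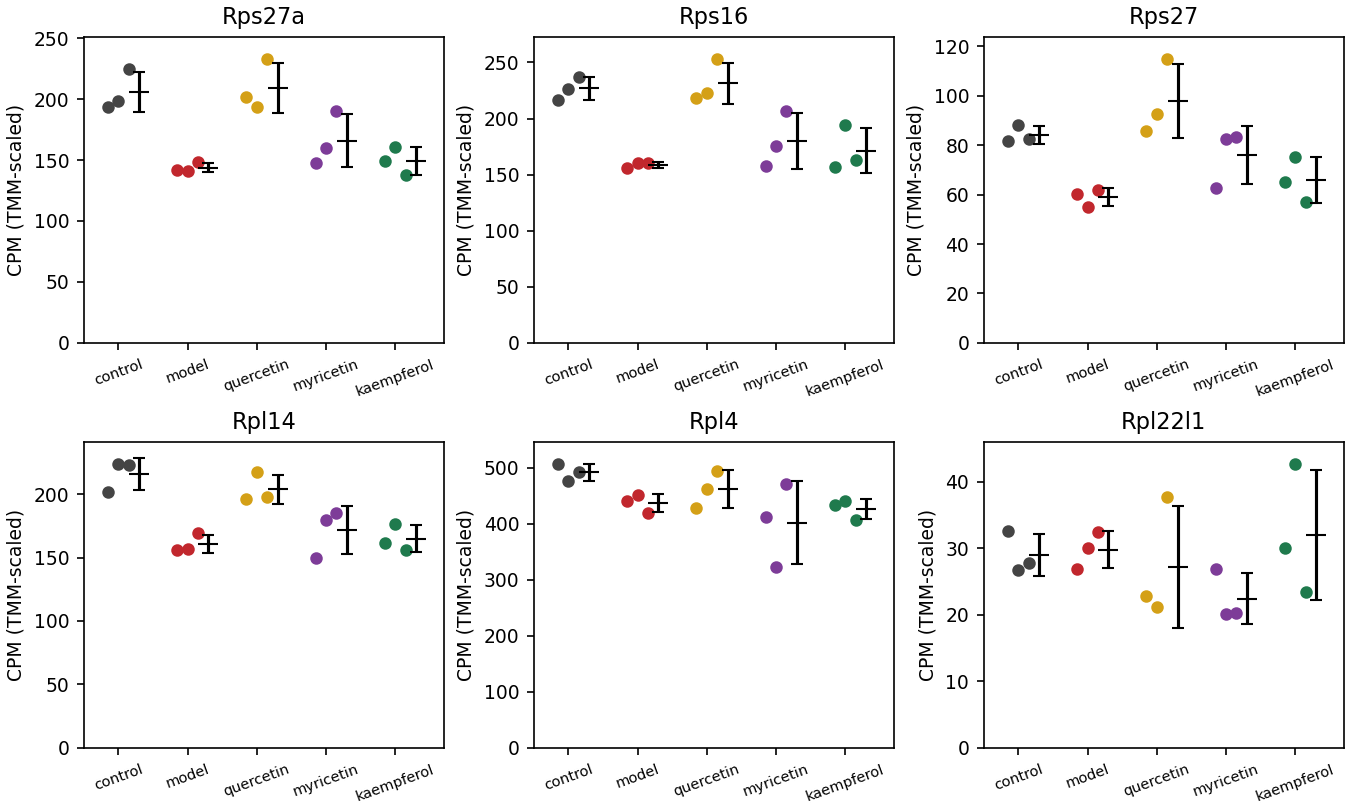
CPM of 6 genes (vertical axes from 0) in the 15 libraries, grouped by treatment, with 1 point per library and the mean ± SD (n = 3) in black. For Rps27a, Rps16, Rps27 and Rpl14 the 3 model points lie below all control and quercetin points; for Rpl4 model and quercetin points overlap; for Rpl22l1 the points of all groups overlap except those of myricetin (20.1 to 26.9 CPM) and the model (26.9 to 32.4 CPM), which meet at 26.9 CPM.

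The quercetin result depended on single libraries in its number of genes more than in its direction. Without quercetin 8, the library that stood apart in TMM-scaled CPM, 13 genes rose and the median was 0.28. Without model 1 the number was 10, without model 2 it was 9, and without model 5 or without quercetin 5 it was 19. Without quercetin 2 it was 33, with a median of 0.44. Over all genes 514 rose with every library in, 358 without quercetin 8, 207 without model 1, 176 without model 2, 265 without model 5, 287 without quercetin 5 and 387 without quercetin 2. In all 6 of these fits 9 genes rose. Among them were Rps12, Rps16, Rps18, Rps20, Rps27, Rps27a and Rpl36a and, named after its values were seen, Rps23.

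Gene length moved with the quercetin result. Ribosomal protein mRNAs are short, with a median effective length of 447 bases against 2640 bases over all tested genes. In each library, the trend of all other genes against length was therefore read at the lengths of the ribosomal protein genes. In log2 units around the mean of the 15 libraries, it stood at 0.08, 0.04 and 0.29 in quercetin 2, 5 and 8 and at -0.11, -0.17 and 0.01 in model 1, 2 and 5. It stood at 0.01, -0.01 and -0.06 in the controls. Other short genes were thus also higher with quercetin, most of all in library 8. With this trend taken out as an offset, 5 of the 83 genes rose with quercetin and the median was 0.17. Among the 5 were Rps20, Rps27a, Rpl13a and, named after its values were seen, Rpl37. Of all tested genes 318 rose with the offset, against 514 without it. In the model against the control, 12 genes fell with the offset, 9 of them among the 12 without it, and the median was -0.25. Of all tested genes 370 fell there, against 287 without the offset.

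Within the 83 genes, Spearman's rho between log2 fold change and effective length was -0.37 for quercetin against the model and 0.15 for the model against the control, a description over genes that share libraries. The median with quercetin was 0.45 for the 42 genes at or under the median length and 0.34 for the 41 longer ones. Total count scaling gave still larger values with quercetin, with 76 genes higher and a median of 0.52, since it also moved the median of all genes to 0.15. Of all tested genes 1476 were higher in that scaling.

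**Figure D5:**
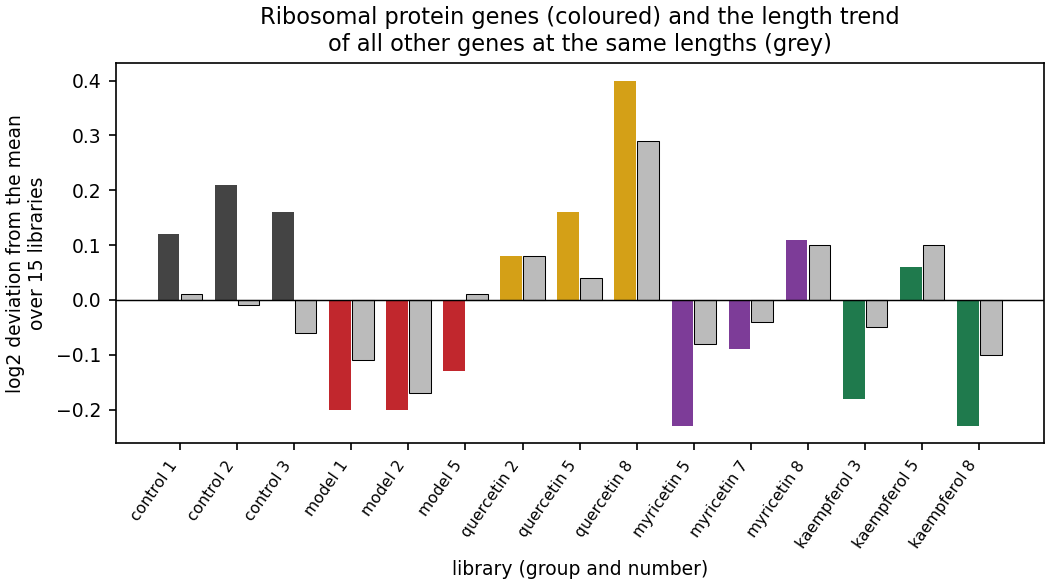
For each library (horizontal axis), the coloured bar is the median over the 83 ribosomal protein genes of log2(CPM + 0.5) minus the gene's mean over 15 libraries, and the grey bar is the length trend of all other genes at the same lengths, in the same log2 units. The coloured and grey bars are alike in quercetin 2 and myricetin 8, and the grey bar reaches 0.29 in quercetin 8. The coloured bars of control 1, 2 and 3 stand at 0.12, 0.21 and 0.16, above grey bars at 0.01, -0.01 and -0.06.

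Genes of the hour of the day moved strongly in the same comparison. The clock output gene Dbp was at 125.5 to 163 CPM with quercetin against 2.2 to 3.03 CPM in the model and 1.8 to 2.83 CPM in the control. The core clock gene Arntl was at 1.33 to 3.56 CPM with quercetin against 27.2 to 30.9 CPM in the model. Of 14 clock genes listed, 6 rose and 5 fell with quercetin against the model. With myricetin, Dbp was at 5.55 to 25.2 CPM and Arntl at 12.9 to 23.2 CPM, and with kaempferol they were at 1.27 to 1.99 and 23.6 to 28.8 CPM. The labels give no hour of collection, and the part of the clock phase or of the length trend in the ribosomal protein values was not tested beyond the offset above. Macrophage markers did not pass between quercetin and model (0 of 12; summed level 386.5 to 436 CPM with quercetin), nor did hepatocyte markers (0 of 10; list median 0.01). Of 6 neutrophil markers 2 were tested and both rose, and the summed level of the list was 3.63 to 7.77 CPM with quercetin against 0.931 to 2.17 CPM in the model, with 4 of its genes at 0 in some library. Of 8 endothelial markers 1 fell, as did 1 of 7 tested markers of T and NK cells. The part of these lists in the result was not tested.

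Myricetin and kaempferol were each compared with the same model libraries, at doses that differ from each other and from that of quercetin, so the values stand side by side without a comparison of the compounds. With myricetin, none of the 83 genes passed in either direction by edgeR or DESeq2, against 0.182% of all genes higher and 0.213% lower by edgeR. At an unadjusted p under 0.05, 2 were higher and none lower, against 6.16% and 5.73% of all genes. The median was 0.10 against 0.01 for all genes. Rps27 was at 62.5, 82.4 and 83.3 CPM, above every model library. Its log2 fold change was 0.37 ± 0.13 (edgeR adjusted p = 0.265). Rpl22 (0.24 ± 0.12) was also among the smallest p on the higher side, and Rpl22l1 (-0.41 ± 0.23), Rps2 (-0.15 ± 0.11) and Rpl4 (-0.12 ± 0.12) had the smallest on the lower side. The 95% interval for Rps27a ran from -0.04 to 0.45.

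With kaempferol against the model, none of the 83 genes passed by edgeR or DESeq2, none had an unadjusted p under 0.05 (7.11% of all genes higher and 4.54% lower), and the median was 0.06. Of all genes 0.0158% rose and 0.0237% fell. The smallest p-values on the higher side were those of Rpl36a (0.18 ± 0.10, edgeR adjusted p = 0.568), Rpl22 (0.16 ± 0.12) and Rps12 (0.13 ± 0.10). Rpl36a was at 65.6, 70.3 and 58.9 CPM with kaempferol, of which library 8 lay within the model range. On the lower side stood the paralogs Rpl7l1 (-0.10 ± 0.10), Rpl37rt and Rpl32l. The 95% interval for Rps27a ran from -0.20 to 0.30. With so few genes called in these 2 comparisons, a gene that misses the threshold is not shown to be equal between groups.

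Set against the control, the 3 flavonoid groups gave medians of 0.05 with quercetin, -0.23 with myricetin and -0.27 with kaempferol, all with the same 3 control libraries. With quercetin, none of the 83 genes passed by edgeR or DESeq2, against 5.62% of all genes higher and 5.99% lower. At an unadjusted p under 0.05, 4 genes were higher and 1 lower, against 13.9% of all genes in each direction. In this comparison 9 of 12 macrophage markers rose. Of the 14 clock genes 6 rose and 4 fell, and of the 6 genes that respond to feeding 1 rose and none fell. The part of these lists in the values was not tested. Rps29 (0.37 ± 0.15, edgeR adjusted p = 0.114), Rps20 (0.31 ± 0.13, 0.127) and Rpl36al (0.38 ± 0.17, 0.169) led the higher side, and Rpl7l1 (-0.28 ± 0.10, 0.077), Rpl14 (-0.08 ± 0.10) and Rps6 (-0.12 ± 0.14) the lower. The sum of Rps6 and its pseudogene was not lower, at 408.9 ± 19.1 CPM with quercetin against 390.2 ± 24.3 CPM in the control (mean ± SD). With the length offset the median was -0.11, against -0.01 over all genes. With total count scaling it was 0.18, against 0.14 over all genes. In that scaling 8 of the 83 genes were higher, beside 1563 of the 12658 genes tested. The sign of the quercetin median relative to the control therefore turned with the length offset and not with total count scaling.

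With kaempferol against the control, 11 genes fell, 7 of the large and 4 of the small subunit, and none rose (5.55% of all genes fell, 7.86% rose). Rps27a was at 149, 161 and 138 CPM with kaempferol, below all controls, and fell by 0.47 ± 0.11 (edgeR adjusted p = 0.012). Rpl14 was at 161, 176.5 and 156 CPM and fell by 0.39 ± 0.10 (0.0173 in the same test). Rps18 (-0.41), Rpl36 (-0.46), Rps16 (-0.41) and Rpl24 (-0.41), which forms a bridge between the subunits, were next. In 49 genes the groups did not overlap, with kaempferol lower, against 16.1% of all genes. The number that fell was 21 without kaempferol 5, whose summed level was the highest of its group, 8 without control 1, and 0 or 1 without any other library. Over all genes 702 fell with every library in, 399 without kaempferol 5, 860 without control 1 and 309 to 581 in the other 4 fits. With the length offset 31 ribosomal protein genes fell, beside 1081 of all tested genes, against 702 without it. The offset moved the share of higher among all called genes from 58.6% to 45.9%. The median over all genes was -0.04 with the offset. In this comparison all 12 macrophage markers rose, with a summed level of 487 to 1081 CPM, and 7 of 8 endothelial markers rose, while 2 of 10 hepatocyte markers fell (list median -0.33). Of the 14 clock genes 3 rose and 6 fell, and of the 6 genes that respond to feeding 2 rose and 2 fell. The part of all these lists in the fall was not tested.

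With myricetin against the control, Rpl14 alone fell (4.63% of all genes fell, 4.57% rose). It was at 149.9, 180 and 185.5 CPM with myricetin, each below the lowest control at 201 CPM, and the fall was by 0.33 ± 0.10 (edgeR adjusted p = 0.0481). In 33 genes all myricetin libraries were below all controls, against 13.9% of all genes, and 37 had an unadjusted p under 0.05 on the lower side (13.0% of all genes). Without myricetin 8, the library with the highest summed level of its group, 18 genes fell. The number was 2 without control 1 and 0 without any 1 of the other 4 libraries. Over all genes 586 fell with every library in, 410 without myricetin 8, 696 without control 1 and 244 to 350 in the other 4 fits. With the length offset 17 ribosomal protein genes fell and with DESeq2 8, beside 721 and 787 of all genes. None passed with total count scaling, upper quartile factors or no low-count filter, where 259, 496 and 499 of all genes fell. Here 9 of 12 macrophage markers rose, with a summed level of 382 to 537 CPM, as did 6 of 8 endothelial markers. Of 10 hepatocyte markers 4 fell, with a list median of -0.47. Of the 14 clock genes 3 rose and 2 fell, and of the 6 genes that respond to feeding 1 rose and none fell. The part of these lists in the result was not tested.

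The paralogs had medians nearer to 0 than the subunit proteins in the model and with quercetin, and that difference was not tested. Rps27l, a p53 target that differs little from Rps27, was at 139, 153 and 140.4 CPM in control, 135, 116 and 137 CPM in model and 139.7, 149 and 194.5 CPM in quercetin libraries. All 3 model libraries lay below the lowest control, and the difference was -0.16 ± 0.15 (edgeR adjusted p = 0.578). Rpl22l1, which can replace Rpl22 in the ribosome, was at 32.6, 26.7 and 27.8 CPM in control, 26.9, 30.0 and 32.4 CPM in model and 22.8, 21.1 and 37.7 CPM in quercetin libraries, with no clear order of groups. Rpl36al differed between single controls, at 137, 85.7 and 144 CPM, more than any group mean differed. Rpl7l1 was at 73.8, 75.1 and 74.0 CPM in the control and at 59.8, 62.5 and 62.0 CPM with quercetin, a lower level that did not pass. Rpl32l and Rpl37rt were at most 2.55 and 1.6 CPM in any library.

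Other ribosomal components whose symbols the rule does not catch were examined as well. Fau, which encodes a ubiquitin-like protein fused to a small subunit protein, fell in the model (-0.45 ± 0.11, edgeR adjusted p = 0.0342) and rose with quercetin against the model (0.52 ± 0.11, 0.0119). The scaffold Rack1 had values of -0.28 ± 0.11 and 0.30 ± 0.11, neither of which passed. The Rps6 pseudogene named above, which holds most Rps6-like reads, had -0.39 ± 0.11 (0.0564) in the model and rose with quercetin (0.47 ± 0.11, 0.0186).

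Genes with and without a TOP-type run at the start are given side by side. Of the 14 tested genes with a run at the annotated start that begins with C, 3 fell in the model with a median of -0.34. Of the 49 with a promoter but no such run, 5 fell with a median of -0.33. The 49 include genes whose run begins with T, such as Rpl27a with 16 pyrimidines at the annotated start. With quercetin against the model the medians were 0.39 and 0.37. Translation factors and other TOP mRNAs, 19 of them tested, had medians of -0.17 in the model and 0.23 with quercetin. None passed in the model against the control, where 2.2% of all tested genes rose and 2.27% fell. With quercetin against the model 4 rose and none fell, against 4.06% and 3.76% of all tested genes. Among the 4 were Naca (0.50 ± 0.12), a chaperone at the ribosome exit, the initiation factor subunit Eif3k (0.53 ± 0.12) and the elongation factor subunit Eef1d (0.43 ± 0.10). Eef1d fell with kaempferol against the control (-0.36 ± 0.10), and Nap1l1 fell with quercetin against the control (-0.29 ± 0.09).

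Among 23 genes of mTORC1 signalling none passed in the model against the control, where 2.2% of all tested genes rose and 2.27% fell. With quercetin against the model 2 of the 23 rose and 1 fell, against 4.06% and 3.76% of all tested genes. With quercetin against the model, Eif4ebp1, the translation repressor that mTORC1 inactivates, rose from 29.0 ± 1.2 to 44.8 ± 6.11 CPM (0.63 ± 0.10, edgeR adjusted p = 0.00179), and Flcn, an mTORC1 regulator on lysosomes, rose by 0.88 ± 0.23 (0.0298). Larp1, the TOP-binding protein, fell from 195.6 ± 17.5 to 134 ± 3.72 CPM (-0.54 ± 0.11, 0.00585). Larp1 was also lower with quercetin than in the control (-0.48 ± 0.11, 0.0102). With myricetin and kaempferol against the model no gene of this list passed, and Larp1 had values of -0.28 ± 0.11 and -0.11 ± 0.11.

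Of 40 genes of RNA polymerase I and ribosome assembly, 2 fell in the model, the assembly factors Rrs1 (-0.87 ± 0.20, edgeR adjusted p = 0.0257) and Nob1 (-0.63 ± 0.13, 0.0165), with a list median of -0.23. With quercetin against the model 3 rose, Eif6 (0.45), Polr1d (0.50) and Rrp9 (0.71), and 2 fell, Nat10 (-0.55) and Nop16 (-0.37), with a median of 0.06. Of all tested genes 4.06% rose and 3.76% fell in that comparison, and 2.27% fell in the model against the control. Nob1, the nuclease that finishes the small subunit rRNA, had 0.03 ± 0.14 with quercetin against the model and was lower than the control in all 3 flavonoid groups (-0.61, -0.73 and -0.82 with quercetin, myricetin and kaempferol).

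Other short, abundant complexes are given beside the members. Of 78 mitochondrial ribosomal proteins, whose median effective length was 810 bases, none passed in the model against the control (median -0.01), and 8 rose with quercetin against the model (median 0.21). Mrpl2 (0.47 ± 0.10), Mrps26 (0.47 ± 0.12) and Mrpl41 (0.58 ± 0.15) were the leading ones. With the length offset 2 rose and the median was 0.07. Of 38 proteasome genes none passed in the model against the control (median 0.03), and 6 rose with quercetin against the model (median 0.20), 2 with the offset (median 0.06). Psmb10, an immunoproteasome subunit, rose by 0.68 ± 0.11, and Psmb3 by 0.56 ± 0.12. Of all tested genes 4.06% rose with quercetin against the model. In the model against the control both medians were thus near that of all genes (-0.01), and with quercetin both were above 0. The difference between these lists and the ribosomal proteins was not tested.

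Of 86 ribosomal protein genes with a q value in the authors' deposited table, 41 were lower in the model at q under 0.05 (47.7% against 6.28% of all genes in either direction). With quercetin against the model, the authors' deposited table has 38 of 86 higher (44.2% against 5.95% of all genes in either direction). Of all 16095 genes with a q value there, 446 were higher and 511 lower. The same table has 0 of 87 past that threshold with myricetin and with kaempferol against the model, beside 1.73% of all genes in each.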

How the data were processed

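Liver RNA of 15 mouse libraries was sequenced, and 1 table was deposited. The submitters' processing notes name HISAT2 2.1.0 and Bowtie2 2.3.4.3 (aligners), RSEM 1.3.1, DESeq2 1.4.5 and GRCm38.p6, without saying how each was used. Strandedness is not given in the sources used here. Per the file headers the table holds expected counts, FPKM and TPM per library, with the authors' log2 fold change, p-value and q-value for 4 comparisons. The deposited FPKM served for levels between genes, and the deposited TPM were not used. Of the deposited expected counts 5.37% were not whole (tolerance 0.005), which marks reads divided between similar genes.

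Expected counts were rounded, filtered with filterByExpr (12658 of 16809 genes) and TMM-scaled. They were fitted over all 15 libraries with 1 mean per group, using edgeR 4.0.16 (robust quasi-likelihood fit; R 4.3.3) with 10 residual degrees of freedom. The 7 contrasts were tested 2-sided with Benjamini-Hochberg adjustment. Library totals were 15.9 to 17.6 M counts, and the common biological coefficient of variation was 0.155. Standard errors were derived from the fold change and its F statistic. The fit was tested on simulated data with known changes.

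Effective length is the ratio of count to FPKM. The length trend is a loess fit (span 0.5) of each library's log2 CPM deviation on log length, over genes that are not ribosomal proteins. Alternatives were other scalings, no filter, DESeq2 1.42.0, only the 2 groups compared, a block on the title number, the length offset, fewer members, and leaving out each library. Named genes were fixed members, paralogs, up to 6 passing members per direction by p, or the 3 smallest p where none passed, the 5 highest and 5 lowest FPKM, and up to 3 passing genes per direction of each other list, and some genes that this rule names are not reported here. The members and lists were chosen with earlier results of these data known.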

Additional observations from a re-analysis of the deposited data

How the results depend on the processing

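Over the 7 comparisons, no alternative turned the direction of a called value, and values of genes that did not pass can change sign. With total count scaling, 34 ribosomal protein genes were lower in the model and 76 higher with quercetin against the model (median 0.52). With quercetin against the control 8 were higher (median 0.18), and with myricetin against the control 0 passed. Of all genes 212 were lower in the model, and 1476 and 1563 were higher with quercetin against the model and the control. With myricetin against the control 259 of all genes were lower. Total count scaling moved the share of higher among all called genes from 51.9% to 85.3% with quercetin against the model, from 48.4% to 82.7% with quercetin against the control, from 46.0% to 83.1% with myricetin and from 40.0% to 80.0% with kaempferol against the model, and from 49.7% to 76.4% and 58.6% to 73.1% with myricetin and kaempferol against the control. DESeq2 gave 26 lower in the model, 8 with myricetin and 18 with kaempferol against the control (485, 787 and 854 of all genes). With only the 2 groups fitted, the numbers were 40, 0 and 3 (428, 387 and 492 of all genes). With the length offset, 5 rose with quercetin against the model (median 0.17), and 17 and 31 fell with myricetin and kaempferol against the control. Of all genes 318, 721 and 1081 did so. The median of quercetin against the control was -0.11 with the offset. Upper quartile factors and no filter each gave 0 with myricetin and 6 with kaempferol against the control. Lower among all genes were 496 and 587 with upper quartile factors and 499 and 658 without the filter. The cause of these shifts was not tested. Without the members whose counts were not whole, an alternative chosen after seeing the data, 10, 31, 1 and 11 genes passed in the 4 comparisons with calls.

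Leaving out each library gave 0 to 14 genes in the model against the control (median -0.35 to -0.30), 9 to 33 with quercetin against the model (0.28 to 0.44), 0 to 18 with myricetin against the control (-0.33 to -0.16) and 0 to 21 with kaempferol against the control (-0.36 to -0.22). In the other 3 comparisons it gave 0 throughout, with medians of 0.01 to 0.19 (myricetin against the model), -0.03 to 0.12 (kaempferol against the model) and -0.04 to 0.13 (quercetin against the control). The title numbers share only a number: of 14 pairs of libraries with the same number none had a correlation of deviations above 0.1 (-0.238 to 0.0978). With the replicate block, 0 ribosomal protein genes passed in the model, with quercetin against the model, and with myricetin or kaempferol against the control, and 43, 236, 2 and 298 of all genes did. The median with the block was -0.37 for myricetin against the control.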
